A study of Homo sapiens with 4 samples.

Results

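Histone genes were read on 4 whole-genome Affymetrix arrays of M14, an established human melanoma cell line. A probe set, the group of short probes that reports 1 signal, was taken as a member where its annotation names histone genes and nothing else, under the older HIST and H1F to H3F symbols or the current ones. Of 54613 probe sets without controls, 110 met this rule and named 84 genes. Replication-dependent genes of the histone clusters accounted for 69 of them and polyadenylated variant genes for 30. A further 4 belong to H2AX, 5 to pseudogenes, and 1 each to H2AP and H2BC12L. Of the 110, 85 name 1 gene and 25 name several. An antisense transcript, H1-10-AS1, and 4 probe sets that name H3-3A and H3-3B together with a microRNA were left out, a reading of the rule settled after their signals had been seen.

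The 4 groups were the line labelled ARHGAP8 in 3D, the line labelled ARHGAP8 in 2D, the empty-vector line in 3D and the empty-vector line in 2D, with 1 array each. The line labelled ARHGAP8 carries FLAG-tagged ARHGAP8 (the minus exon 5 variant) in the plasmid pIRES2-eGFP, and the control line carries that plasmid empty. Both lines are stable transfectants selected with G418 and sorted for eGFP, and both stayed in G418 during culture. In 3D the cells were embedded in growth factor-reduced Matrigel, a basement membrane gel. In 2D they grew on plastic coated with bovine type I collagen and were harvested before confluence, and culture lasted 4 days by the series' design. One line per plasmid was measured, so a difference between the lines cannot be told apart from a difference between any pair of transfected lines. Nothing says that the arrays came from repeated cultures. With 1 array per group, p-values measure no spread between replicates, and the error behind them draws mostly on other probe sets.

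Histones are the proteins around which DNA is wound: H2A, H2B, H3 and H4 form the core of the nucleosome and H1 binds the linker DNA. The replication-dependent genes lie in clusters, are transcribed mainly in S phase, and give messenger RNAs that end in a stem-loop, bound by the protein SLBP, in place of a poly(A) tail. Variant histone genes lie outside the clusters, are transcribed through the cell cycle and give polyadenylated messages. Several cluster genes, H2BC21, H2BC12, H2BC5 and H2AC6 among them, are known to give polyadenylated messages as well, and H2AX gives messages of both kinds. Here, per the labels' protocols, first-strand cDNA was primed with poly(T), so a message that has only the stem-loop end offers no poly(A) tail to that primer. The cRNA was then amplified again from random primers.

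Values are MAS5 signals on a linear scale, rescaled to a common trimmed mean. A signal of 72.3, the median of all scaled values, served as the floor, and lower signals were raised to it before log2 was taken. Ratios with 1 side at the floor are bounds. Signals of different probe sets are not set against each other, since each has its own affinity.

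The 18S ribosomal RNA controls had a median signal of 626 on the ARHGAP8 3D array, against 27.7 to 49.4 on the other 3 arrays. For the 28S controls the median was 1390 against 94.4 to 119. The 3' control of 28S was level, at 124 on the ARHGAP8 3D array against 119 to 138 on the others. The ratio of 3' to 5' signal ran from 1.05 to 1.32 for ACTB and from 0.874 to 0.925 for GAPDH. Of 9 melanocyte lineage markers on the array, 8 were above the floor on all 4 arrays, and PMEL, a defining one, was below it on all 4. Of 11 markers of other cell types, 6 were below the floor on every array, among them EPCAM, CDH1 and PTPRC. The other 5, KRT18, KRT8, COL1A1, DCN and PECAM1, were above it on all 4. PECAM1 read 268 to 343, COL1A1 179 to 253, DCN 117 to 184 and KRT8 119 to 167. The summed signal of the 11 was 1404 (ARHGAP8) and 1346 (vector) in 3D, against 1773 (ARHGAP8) and 1699 (vector) in 2D. KRT18, a keratin, carried the difference of this sum between the cultures and was the 1 of the 5 tested that was called. It read 458 (ARHGAP8) and 313 (vector) in 3D, against 944 (ARHGAP8) and 729 (vector) in 2D. The median culture difference of the 5 was 0.24. Of the melanocyte markers, TYR and TYRP1 were called higher in 3D, by 0.88 and 1.47 on the log2 scale. The part of these markers in the histone values was not tested. All 4 ARHGAP8 probe sets, which also name the readthrough gene PRR5-ARHGAP8, read 4.02 to 14.8, so the signals do not check the label of the line.

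Promoters of 3 histone genes are shown because 2 of them belong to the genes that passed the test below (H2BC9 and H2AX) and the other to H2BC12, a cluster gene with an octamer and TATA match for comparison. They were picked after the values had been seen. Each is 300 bases, 250 before the start and 50 after it, 5′ to 3′ on the gene's strand, from RefSeq (GRCh38.p14). Capitals mark matches on either strand to 3 motifs. The octamer is ATTTGCAT. The box bound by the factor NF-Y is searched as CCAAT. The TATA box is searched as TATAAA. The windows lie at chr6:26251364-26251663 on the plus strand (H2BC9), chr11:119095416-119095715 on the minus strand (H2AX) and chr6:27146809-27147108 on the minus strand (H2BC12).
H2BC9: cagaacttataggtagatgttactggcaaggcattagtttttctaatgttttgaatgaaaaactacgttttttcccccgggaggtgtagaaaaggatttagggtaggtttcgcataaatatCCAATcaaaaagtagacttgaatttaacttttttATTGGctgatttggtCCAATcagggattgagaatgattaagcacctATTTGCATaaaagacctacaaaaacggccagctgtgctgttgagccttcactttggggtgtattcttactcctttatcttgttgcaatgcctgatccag
H2AX: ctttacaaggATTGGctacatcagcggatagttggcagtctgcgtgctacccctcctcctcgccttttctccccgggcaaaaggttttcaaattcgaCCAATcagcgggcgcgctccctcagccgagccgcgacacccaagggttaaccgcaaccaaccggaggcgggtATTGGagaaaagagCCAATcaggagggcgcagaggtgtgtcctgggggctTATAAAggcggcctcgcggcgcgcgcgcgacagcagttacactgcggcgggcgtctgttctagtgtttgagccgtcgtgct
H2BC12: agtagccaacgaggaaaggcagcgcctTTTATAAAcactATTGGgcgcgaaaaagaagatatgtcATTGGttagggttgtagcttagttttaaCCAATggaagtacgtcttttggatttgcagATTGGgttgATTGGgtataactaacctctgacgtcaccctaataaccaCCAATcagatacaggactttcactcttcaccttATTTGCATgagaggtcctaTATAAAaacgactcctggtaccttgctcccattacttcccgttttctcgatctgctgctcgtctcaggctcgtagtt

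The H2BC9 promoter held 1 octamer, 3 CCAAT matches and no TATAAA match, and the H2AX promoter held 4 CCAAT matches, 1 TATAAA match and no octamer. The H2BC12 promoter held 1 octamer, 6 CCAAT matches and 3 TATAAA matches, of which a forward and a reverse one overlap. The octamer is a binding motif of the POU factor POU2F1 and is known from H2B promoters. Of the 84 member genes, 73 were matched in the promoter table. The octamer stood in 13 of 16 promoters of cluster H2B genes and in 8 of 13 of cluster H2A genes, beside 1.80% of all 27305 promoters. Of the 13 H2A promoters, 8 share bases with the window of an H2B promoter, and 6 of these 8 held the octamer, as did 2 of the other 5. No octamer stood in the 6 cluster H1 or the 13 cluster H4 promoters. CCAAT was found in 82.5% of the 57 cluster promoters and 78.6% of the 14 variant promoters, against 35.7% of all. TATAAA was found in 64.9% of the cluster promoters and 21.4% of the variant promoters, against 11.95% of all. These matches describe the sequences and were not set against the signals.

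Polyadenylated variants were above the floor more often than cluster members. All 4 arrays were above it for 18 of 30 variant probe sets (60.0%) and for 23 of 69 cluster probe sets (33.3%), beside 41.5% of all probe sets. No array was above it for 7 variant and 31 cluster probe sets. The 110 members together gave 45 above the floor on every array, or 40.9%. This is a count of probe sets past a fixed signal, in which probe affinity and message abundance cannot be told apart, and the groups of probe sets were not tested against each other.

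Within the clusters, the families differed in these counts. Above the floor on all 4 arrays were 9 of 19 H2B, 8 of 15 H2A, 2 of 7 H1, 3 of 15 H4 and 1 of 11 H3 probe sets. Among the variants these were all 5 H3 probe sets, 12 of 19 H2A and 1 of 5 H1. The linker genes H1-1, H1-3, H1-4 and H1-5 were below the floor on every array, while H1-2 was above it on all 4. Among the germline genes, H1-8, H2BW2 and the H2AB genes were below the floor on every array. For H1-6, 1 probe set was above it on all 4, at 101 to 125, and the other was below it on every array. The linker variant H1-7 had 1 probe set above the floor on 3 arrays, at 55.4 to 98.6 over all 4, and its others were below it throughout. MACROH2A2, a macroH2A variant, was below the floor on every array. Of the 5 pseudogene probe sets, 4 were below the floor on every array, and H2AC5P passed it only on the vector 2D array, at 87.5.

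**Figure D1:**
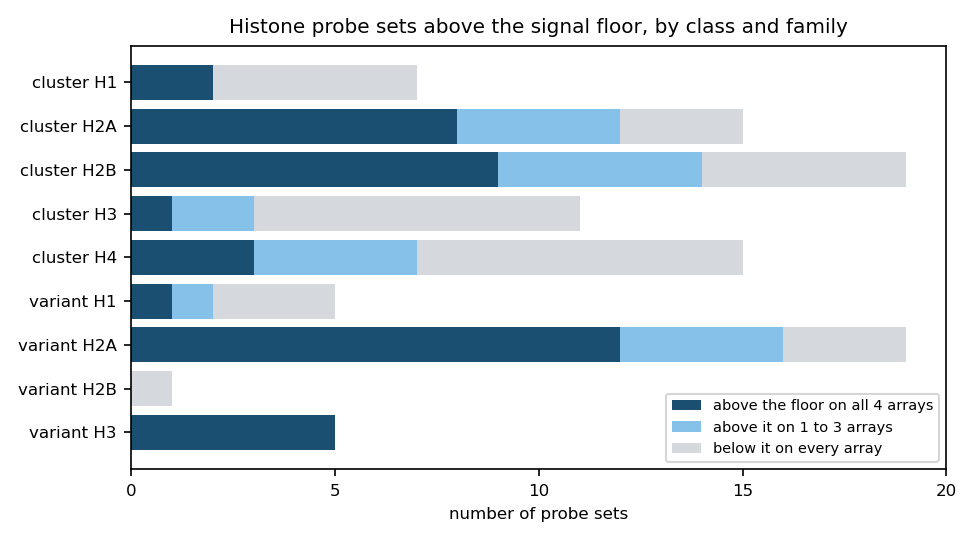
Number of histone probe sets (horizontal axis) by class and family (rows), split by whether the signal was above 72.3 on all 4 arrays, on 1 to 3 arrays or on none. All 5 variant H3 probe sets are above it on every array, against 1 of 11 cluster H3 probe sets.

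The comparison of 3D with 2D culture asked which histone messages differ between cells in the gel and cells on plastic. H2AX, the variant phosphorylated at DNA breaks, and H2BC9, a cluster H2B gene, were lower in 3D in both lines, by 2.27-fold and at least 2.56-fold on average. Another H2AX probe set gave a log2 difference of 0.04. With no filter on low values neither passed (adjusted p 0.783 and 0.830 in limma). No histone probe set was called higher. The test was limma's additive model of plasmid and culture, fitted over all 28651 probe sets above the floor on at least 2 arrays. Calls are at an adjusted p (Benjamini-Hochberg) under 0.05. Of the 110 members, 55 entered it: 30 cluster, 21 variant, 3 H2AX and 1 H2BC12L. The test called 2 of them lower and 0 higher in 3D, beside 1.87% lower and 1.63% higher of all probe sets tested. In these calls 466 probe sets were higher and 535 lower, against 297 and 218 under cyclic loess normalization. An unadjusted p under 0.05 was found for 10 of the 55 members and for 17.6% of all.

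H2AX had a signal of 964 in the line labelled ARHGAP8 and 831 in the empty-vector line in 3D, against 1993 and 2065 in the same lines in 2D. Both 3D arrays lay far below both 2D arrays. In bulk RNA, fewer cells that make the message and less message per cell cannot be told apart. The log2 difference was -1.18 ± 0.16, the error being limma's moderated SE over the 4 arrays here and below. Its adjusted p was 0.000955. The signal was 2.07-fold lower in 3D in the line labelled ARHGAP8 and 2.48-fold lower in the empty-vector line.

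H2AX has 3 other probe sets, and they do not repeat this value alike. The 2nd probe set read 192 (ARHGAP8) and 145 (vector) in 3D, against 276 (ARHGAP8) and 357 (vector) in 2D. Its difference was -0.91 ± 0.25 with an adjusted p of 0.0597 in limma, so it was not called. The 3rd, named after its values were seen, read 209 and 168 in 3D, against 199 and 167 in 2D, for the ARHGAP8 and the vector line in each culture. Its difference was 0.04 ± 0.25. The last was below the floor on every array. Where each probe set lies on the short and the polyadenylated H2AX message was not analysed here.

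H2BC9 read 52.6 (ARHGAP8) and 80.0 (vector) in 3D, against 192 (ARHGAP8) and 197 (vector) in 2D. Both 3D arrays were below both 2D arrays, and the ARHGAP8 3D array was below the floor. With that array at the floor, the log2 difference was -1.36 ± 0.26, with an adjusted p of 0.0102 in limma. The signal was at least 2.66-fold lower in 3D in the line labelled ARHGAP8 and 2.47-fold lower in the empty-vector line. The suffix of this probe set (x_at) marks probes that may also bind other messages, which for H2B genes are near-identical copies.

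The other H2B members did not pass the test. H2BC12 read 1670.5 (ARHGAP8) and 1490 (vector) in 3D, against 2266 (ARHGAP8) and 1897 (vector) in 2D. Both lines were lower in the gel, by 0.39 on the log2 scale on average (adjusted p 0.222 in limma). H2BC12L, an H2B gene outside the main clusters, read 347 (ARHGAP8) and 305 (vector) in 3D, against 523 (ARHGAP8) and 433 (vector) in 2D. Its difference was -0.55, also lower in both lines, with an adjusted p of 0.127 in limma.

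H2B probe sets with the opposite sign were found too. H2BC21 read 134 (ARHGAP8) and 128 (vector) in 3D, against 113 (ARHGAP8) and 93.6 (vector) in 2D, a difference of 0.35 that did not pass. H2BC15, named after its values were seen, read 108 (ARHGAP8) and 102 (vector) in 3D, against 19.3 (ARHGAP8) and 22.7 (vector) in 2D. The 2D signals were below the floor, so the difference is bounded at 0.54, with an adjusted p of 0.19 in limma. Of the 12 cluster H2B probe sets tested, 6 had a positive and 6 a negative difference, with a median of -0.04.

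The cluster H2A genes had mostly positive values. Of 9 tested, 7 differences were positive and 2 negative, with a median of 0.21, and none passed. H2AC25 read 225 (ARHGAP8) and 293 (vector) in 3D, against 193 (ARHGAP8) and 168 (vector) in 2D, the highest difference among the cluster H2A probe sets at 0.51. Its other probe set gave 0.32. H2AC6 read 317 (ARHGAP8) and 295 (vector) in 3D, against 271 (ARHGAP8) and 213 (vector) in 2D, a difference of 0.35.

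The remaining cluster families gave few measurable members. H1-2 had a difference of -0.18 and H1-6, a germline linker histone, of 0.22. The 2 cluster H3 probe sets tested gave 0.06 (H3C11) and 0.15 (H3C6), and the 5 cluster H4 probe sets ran from -0.08 to 0.30. The highest of these, a probe set that names 14 H4 genes at once, read 443 (ARHGAP8) and 240 (vector) in 3D, against 311 (ARHGAP8) and 226 (vector) in 2D. The other probe sets that name the same 14 genes were below the floor on every array. None of the tested probe sets of these families passed.

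**Figure D2:**
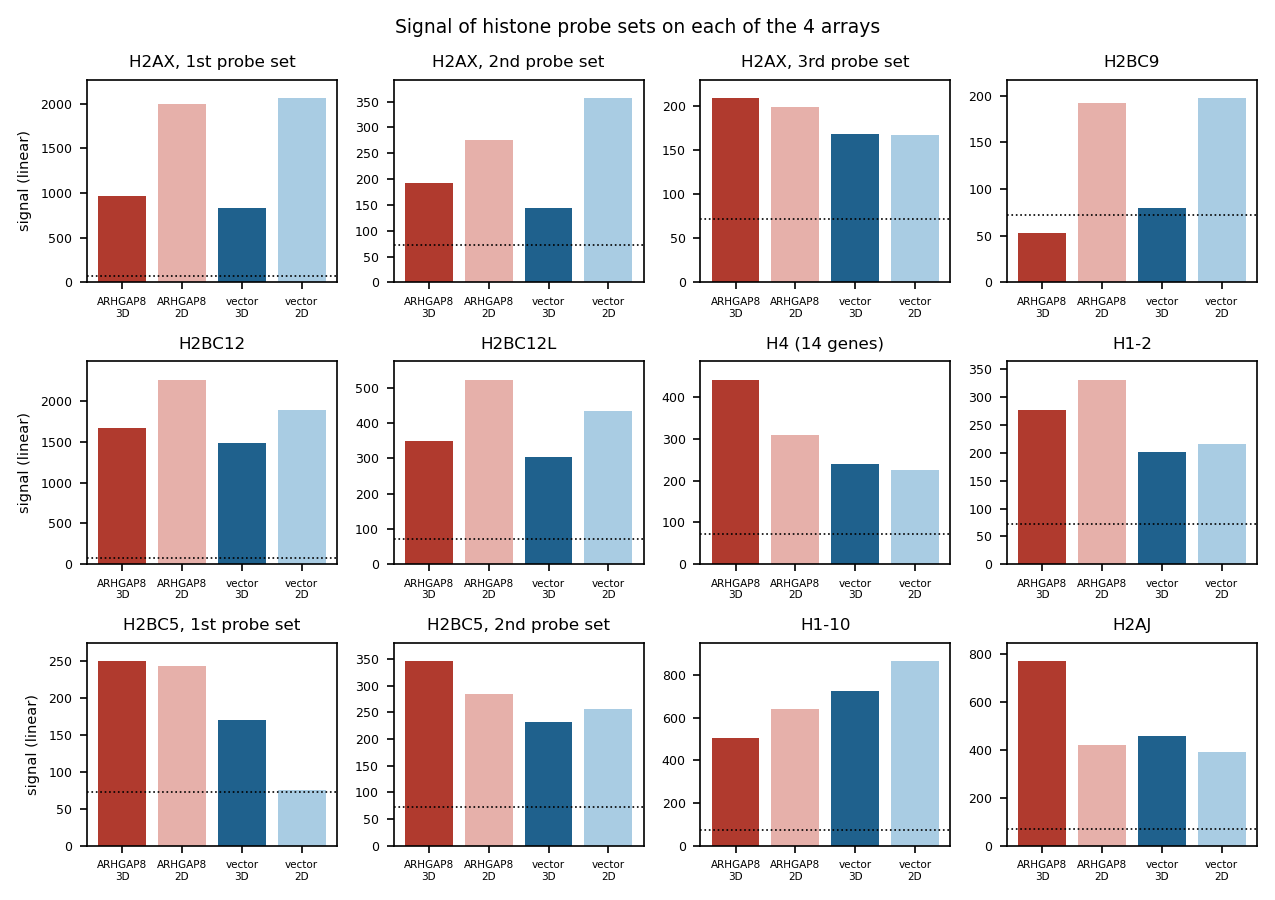
Linear signal of 12 histone probe sets, 1 bar per array, with the floor of 72.3 as a dotted line and a separate vertical scale in each panel. The panels include probe sets picked after their values were seen; H2AX (the 1st and 2nd probe sets) and H2BC9 are lower in 3D in both lines, and the 3rd H2AX probe set is nearly level.

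Of the 21 variant probe sets tested, 15 had a negative and 6 a positive culture difference and none passed. H2AJ, an H2A variant gene known from senescent cells, read 771 (ARHGAP8) and 458 (vector) in 3D, against 423 (ARHGAP8) and 394 (vector) in 2D. The difference was 0.54 ± 0.19, with an adjusted p of 0.151 in limma, and was 0.87 in the line labelled ARHGAP8 and 0.22 in the empty-vector line. A second probe set of H2AJ gave 0.41 ± 0.17 (adjusted p 0.237 in limma). Its remaining probe sets were above the floor on the vector 3D array only, at 81.0 and 75.3, and were not tested.

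H2AZ1 and H2AZ2 encode H2A.Z, the variant of promoter nucleosomes. Both probe sets of H2AZ1 lay between 2912 and 5002 on every array and gave 0.00 and -0.29. The probe sets of H2AZ2 did not give 1 value. One of them read 225 (ARHGAP8) and 199 (vector) in 3D, against 327 (ARHGAP8) and 287 (vector) in 2D, a difference of -0.53 ± 0.22. Its adjusted p was 0.214 in limma. A 2nd gave -0.37 ± 0.21, and a 3rd, at the floor on both 3D arrays, is bounded at -0.53. The remaining one, at 847 to 967, gave -0.05 ± 0.16.

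MACROH2A1, which encodes a histone with a large additional domain, had 5 probe sets above the floor on all 4 arrays. Their differences ran from -0.30 to 0.32. H3-3A and H3-3B encode H3.3, the H3 laid down outside replication. The 4 probe sets shared by these genes and the pseudogene H3P6 gave -0.32 to 0.23, and the H3-3A probe set gave -0.08. Left out of the variant counts were 4 probe sets of both genes that also name a microRNA. Where above the floor, they read lower in 3D in both lines. A probe set among them read 1693 (ARHGAP8) and 1696 (vector) in 3D, against 2563 and 2438 in 2D. Another read 2616 (ARHGAP8) and 1682 (vector) in 3D, against 2688 and 2418 in 2D. A further probe set read 3825 (ARHGAP8) and 2966 (vector) in 3D, against 4065 and 3840 in 2D. The last was below the floor on every array. The linker variant H1-10 read 504 (ARHGAP8) and 722 (vector) in 3D, against 642 (ARHGAP8) and 863 (vector) in 2D, a difference of -0.30 ± 0.17.

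Over the tested probe sets the median culture difference was 0.15 for the clusters and -0.08 for the variants, beside 0.03 for all. The cluster median was 0.19 in the line labelled ARHGAP8 and 0.08 in the empty-vector line, and the variant median -0.05 and -0.23 in the same lines. Over those above the floor on all 4 arrays it was 0.07 (n = 23) and -0.11 (n = 18), beside 0.02. Both 3D arrays lay above both 2D arrays for 9 of the 45 members above the floor on every array, beside 25.5% of all such probe sets, and below them for 14, beside 23.3%. The clusters supplied 5 of the 9 and 4 of the 14, and the variants 4 and 7. These counts were not tested, and no difference between the classes, or from all probe sets, is claimed.

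The comparison of the lines set the transfectant labelled ARHGAP8 against the one with the empty plasmid. No histone probe set passed in either direction, and limma called 0% of the 28651 probe sets higher and 0% lower. An unadjusted p under 0.05 was found for 6 of 55 members and 7.06% of all probe sets. With the test limited to probe sets above the floor on all 4 arrays, limma called 15 probe sets higher and 13 lower, and no member was among them.

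H2BC5, a cluster H2B gene, had the largest line difference among the members. One probe set read 250 in the line labelled ARHGAP8 against 171 in the empty-vector line in 3D, and 244 against 75.8 in 2D. The log2 difference was 1.12 ± 0.30 with an adjusted p of 0.390 in limma, being 0.55 in 3D and 1.69 in 2D. The vector 2D signal lies just above the floor. The other H2BC5 probe set read 346 against 231 in 3D and 284 against 256 in 2D, a difference of 0.37 ± 0.22.

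The H4 probe set of 14 genes that was above the floor read 443 in the line labelled ARHGAP8 against 240 in the empty-vector line in 3D, and 311 against 226 in 2D. It was higher in both cultures, by 0.67 ± 0.21 on average, with an adjusted p of 0.491 in limma. The other probe sets that name the same 14 genes were below the floor on every array. H1-2 read 277 against 202 in 3D and 332 against 216 in 2D, a difference of 0.54 ± 0.22 (adjusted p 0.640 in limma). H1-10, the variant linker gene, had the opposite sign: 504 against 722 in 3D and 642 against 863 in 2D, a difference of -0.47 ± 0.17 (adjusted p 0.537 in limma). A probe set of H2AC15 was also lower in the line labelled ARHGAP8, at 95.2 against 130 in 3D and 76.7 against 123 in 2D. Its difference of -0.56 ± 0.24 did not pass. The other probe set that names H2AC15 alone was below the floor on every array. A probe set that names H2AC15 among 6 genes had the opposite sign, at 0.35 ± 0.27. Another of the same 6 genes was above the floor on the ARHGAP8 3D array only.

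Of the 12 cluster H2B probe sets tested, 11 had a positive line difference, with a median of 0.22. Over all probe sets tested, 14161 of 28651 were positive. Several of the 12 name the same genes, so they are not 12 separate messages. The median was 0.16 over the 30 cluster probe sets and 0.09 over the 21 variant ones, beside -0.00 for all. The variant median was 0.16 in 3D and -0.01 in 2D, so its sign rests on the 3D pair of arrays. Both ARHGAP8 arrays lay above both vector arrays for 11 of 45 members, beside 13% of all probe sets, and below them for 6, beside 14.4%. The clusters supplied 9 of the 11. The ARHGAP8 3D array, which carried the high ribosomal RNA signal, was the highest of the 4 for 8 of 23 cluster and 6 of 18 variant probe sets, beside 29.3% of all. The part of that array's quality in the line values was not tested.

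Single ratios, which set 1 array against 1 array and have no test, gave few members 2-fold apart. In 3D over 2D, 0 members were at least 2-fold higher and 2 lower of 62 in the line labelled ARHGAP8 (2.06% and 1.92% of all). In the empty-vector line 1 was higher and 4 lower of 58 (1.71% and 1.31% of all). Both probe sets lower in the line labelled ARHGAP8, H2AX and H2BC9, were also among the 4 of the empty-vector line. The other members of those 4 were the second H2AX probe set and an H2B probe set that names 5 genes, H2BC4 among them. Between the lines, 0 of 61 members were 2-fold apart in 3D (1.51% higher and 1.42% lower of all). In 2D 1 of 56 was higher, H2BC5, and 0 lower (0.247% and 0.281% of all).

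**Figure D3:**
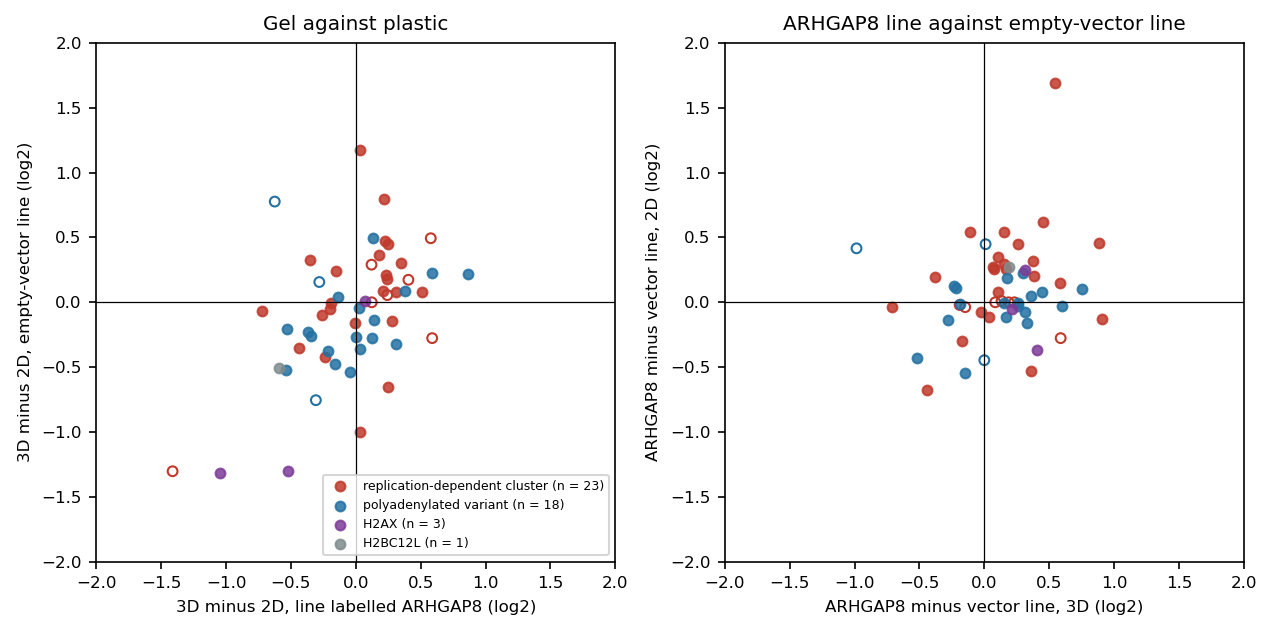
Log2 ratios of the 55 tested histone probe sets: on the left 3D minus 2D in the ARHGAP8 line (horizontal) and the vector line (vertical), on the right ARHGAP8 minus vector in 3D (horizontal) and 2D (vertical). Filled points (counted in the key) are above the floor on all 4 arrays and open points are not; H2AX and H2BC9 lie at the lower left of the left panel, and H2BC5 (0.55 and 1.69) at the top of the right one.

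Genes that work with histones were read from 3 lists, of histone pre-mRNA processing, histone chaperones and S-phase genes; SLBP is in the first and the last of them. Of the S-phase genes, 5 of 20 fell in 3D and 0 rose, beside 1.87% lower and 1.63% higher of all probe sets tested. CCNE2, a cyclin of S-phase entry, fell by 1.32 ± 0.21 on the log2 scale (adjusted p 0.00249 in limma), and CDC6, which loads the replicative helicase, fell by 1.11 ± 0.19 (adjusted p 0.00547 in limma). RRM2, a subunit of ribonucleotide reductase, fell by 0.90. The helicase subunits MCM2 and MCM3 fell by 0.71 each. The median of this list was -0.53, beside 0.03 for all probe sets tested.

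Of the histone chaperone genes, 4 of 27 fell in 3D and 0 rose, beside the same 1.87% and 1.63%. ASF1A read 188 (ARHGAP8) and 131 (vector) in 3D, against 347 (ARHGAP8) and 314 (vector) in 2D, and fell by 1.07 ± 0.24 (adjusted p 0.0216 in limma). ASF1B, its paralog, fell by 0.72, NAP1L4 by 0.90 and DNAJC9, a chaperone of H3 and H4, by 0.83. The median was -0.30. Of the 19 pre-mRNA processing genes, SRRT, a partner of the cap-binding complex, fell by 0.66 (adjusted p 0.0383 in limma), and 0 rose. SLBP itself read 777 (ARHGAP8) and 822 (vector) in 3D, against 984 (ARHGAP8) and 884 (vector) in 2D, a difference of -0.22 that did not pass. The median of that list was -0.12, and no gene of the 3 lists passed between the lines.

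The 30 cluster histone probe sets tested had a median of 0.15, and 0.065 with 1 probe set per gene. The S-phase genes, read from 1 probe set per gene, had -0.53. How much of each cluster message was reached by the poly(T) primer was not measured, and the difference between the lists was not tested.

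**Figure D4:**
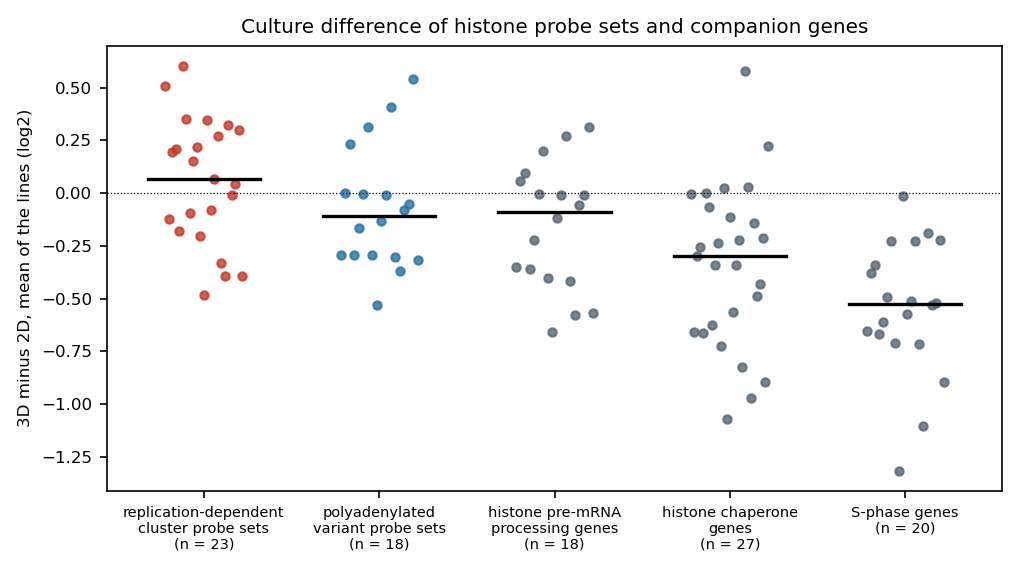
Log2 difference of 3D minus 2D, as the mean of both lines, for each histone probe set or companion gene above the floor on all 4 arrays; the horizontal bar is the median of the group. All 20 S-phase genes lie below 0, while the 23 cluster probe sets lie on both sides of it, with a median of 0.07.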

How the data were processed

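Signal was measured on 4 Affymetrix HG-U133 Plus 2.0 arrays. The intensity values that the authors deposited, 1 per probe set and array, are linear; the submitters' processing notes name MAS5, with a version not given in the sources used here. They had a 2% trimmed mean of 150.0 on each array. The values were rescaled to a common trimmed mean, raised to a floor of 72.3 and put on log2. Above the floor were 48.4% to 51.9% of probe sets per array. The number of arrays limits the precision.

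Names came from the platform annotation, updated through a RefSeq gene table (41091 carried 1 symbol, 1801 several, 11721 none). Probe sets above the floor on at least 2 arrays were fitted with limma 3.58.1 (R 4.3.3): plasmid plus culture, eBayes with an intensity trend, two-sided, Benjamini-Hochberg adjustment over 28651 probe sets. The fit has 1 residual degree of freedom and prior degrees of freedom of 13.9, so its error draws mostly on other probe sets and takes in any interaction. The script was tested on simulated data.

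The members, lists and tests were chosen with earlier results of these data known. Named were members past the test, the 8 highest and 8 lowest differences per term among those above the floor on all 4 arrays, each variant gene, and the 3 highest signals per family; of companion lists, the 5 largest past the test. Others are said to be chosen after their values were seen. Alternatives covered scaling, floor, filter, variance model, 1 probe set per gene and leaving out each array.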

Additional observations from a re-analysis of the deposited data

Results flagged for a closer look

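A probe set that names H2BC4, H2BC10, H2BC6, H2BC7 and H2BC8 at once differed between the lines in opposite directions in the 2 cultures. It read 149 in the line labelled ARHGAP8 against 79.4 in the empty-vector line in 3D, and 146 against 159 in 2D. The line difference was 0.91 in 3D and -0.13 in 2D, a gap of 1.03 on the log2 scale that was not tested. Another probe set that names the same 5 genes did not share the opposite signs, at 0.38 in 3D and 0.20 in 2D. A further one that names these genes was above the floor on the ARHGAP8 2D array only. With 1 array per group, opposite signs alone were met by 16 of the 45 members above the floor on every array between the lines, and by 11 of 45 between the cultures. A gap of at least 1 was therefore asked for, a limit set after the values had been seen.

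Ribosomal RNA controls, outside the histone measurements, were high on the ARHGAP8 3D array. Their median was 626 for 18S against 27.7 to 49.4 on the other 3 arrays, and 1390 for 28S against 94.4 to 119. The 3' control of 28S did not share this, at 124 against 119 to 138.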

How the results depend on the processing

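The culture calls of H2AX (1st probe set) and H2BC9 held in direction and threshold under the other scalings, floors and variance model. Both calls also held with 1 probe set per gene. The H2AX call held in the fit of probe sets above the floor on all 4 arrays, which does not include H2BC9. Over these settings the adjusted p-values in limma were 6.2e-05 to 0.0333 (H2AX) and 0.00159 to 0.0294 (H2BC9). With no filter on low values neither passed (adjusted p 0.783 and 0.830 in limma), the count of members lower in 3D was 0, and no probe set was called (unadjusted p under 0.05 for 8 members). With the filter at all 4 arrays, the 2nd H2AX probe set passed (adjusted p 0.0210 in limma, against 0.0797 to 0.901 under the others). Calls over all probe sets, 466 higher and 535 lower in the main setting, changed by over 1.5 times under some settings, at 284 higher and 222 lower under quantile normalization, 297 and 218 under cyclic loess, 301 and 287 with no floor and 199 and 161 without the trend; the cause was not tested. Between the lines no member passed in any setting; over all probe sets, 15 higher and 13 lower passed above the floor on all 4 arrays and 9 and 8 with 1 probe set per gene.

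The cluster median for culture (0.15) was 0.068 above the floor on all 4 arrays, 0.00 with no filter and 0.065 with 1 probe set per gene. The cluster median between the lines (0.16) was 0.14 under quantile normalization and under cyclic loess, 0.22 above the floor on all 4 arrays, 0.00 with no filter and 0.081 with 1 probe set per gene. Values with no filter include members at the floor on every array, whose difference is 0. Leaving out 1 array leaves no residual degree of freedom, so it gives the ratio of the remaining pair with no test. The cluster median between the lines was then 0.12 to 0.14, the variant median between the lines -0.0081 (without either 3D array) to 0.16, the cluster median for culture 0.080 (without either ARHGAP8 array) to 0.19, and the variant median for culture -0.23 (without either ARHGAP8 array) to -0.046. Leaving out an array turned the sign of 8 of 38 named culture differences (of at most 0.48) and 14 of 38 line differences (of at most 0.39), none of them called. Of 572 values of the 38 named probe sets under the settings that keep all 4 arrays, 6 changed sign, none of them called: 1 H2AZ1 probe set gave -0.18 for culture and -0.067 between the lines under quantile normalization and -0.044 between the lines under cyclic loess, H2AZ2 0.0069 for culture under cyclic loess, and H1-7 0.13 for culture with the floor lowered to 0.5 of the median and with no floor. The additive fit itself compares cultures within each line and lines within each culture. No paired analysis beyond it was possible because each group holds 1 array.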
